A study of Mus musculus with 7 samples.

Results

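Presynaptic genes encode the machinery that fills, docks, primes, fuses and retrieves synaptic vesicles. A vesicle is loaded by a transmitter transporter, is held near the membrane by the scaffold of the active zone, and fuses when SNARE proteins on the vesicle and the plasma membrane zip together under the control of complexins and the calcium sensor synaptotagmin. In the retina, conventional synapses of amacrine cells and the ribbon synapses of photoreceptors and bipolar cells share most of this machinery but differ in some parts, among them the complexins, of which the retina-enriched forms 3 and 4 serve ribbon synapses. A list of 38 such genes was followed through the deposited transcript tables by gene name. Of these, 37 had rows, out of 16143 genes in all, and Slc17a6, which encodes the vesicular glutamate transporter VGLUT2, was not analysed here. Between them the 37 genes had 147 listed transcripts, whose TPM, a relative abundance that takes transcript length into account, was added up gene by gene.

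The libraries came from retinas of ICR mice, an outbred stock, explanted at embryonic day 17.5 and kept in culture for 2 days. All explants received an EGFP plasmid by electroporation, together with either a control plasmid (control, n = 3 libraries) or a plasmid for a short hairpin RNA against Kmt2f, another name of the histone H3 lysine 4 methyltransferase gene Setd1a (shKmt2f, n = 4 libraries). RNA came from the EGFP-positive cells recovered by sorting, which are a mixture of whatever cell types took up the plasmids, and the promoter driving the hairpin is not given in the sources used here. Whether each library stands for its own animal or culture is not stated, nor whether animals were pooled, and p-values therefore rest on library-to-library spread alone, part or all of which may be technical. The question was which transcripts differ when Setd1a is reduced. Its longest listed transcript, of 6487 bases, was 0.767, 0.959 and 0.764 TPM in the controls, listed here and throughout in the order of replicates 1, 2 and 3, against 0.407, 0.328, 0.374 and 0.432 TPM in shKmt2f replicates 1, 2, 3 and 4, or 46.4% of control (exact permutation p = 0.0286, two-sided, the smallest p this number of libraries allows). The other 3 listed Setd1a transcripts overlapped between the groups, and summed over all 4 the exact permutation p was 0.4, with a difference of -0.37 on the log2(TPM + 0.1) scale and -0.33 on log2(TPM + 1). Control replicate 2 stood apart from its group: over all genes it correlated at 0.9776 with shKmt2f replicate 3, above 0.9728 with control replicate 1 and 0.9671 with control replicate 3. The shKmt2f libraries fell into pairs, with 0.9858 between replicates 1 and 2 and 0.9883 between replicates 3 and 4. Across these pairs the correlations lay between 0.9748 and 0.9782. Whether the pairs were prepared apart is not stated. TPM keeps no sequencing depth, and the reads behind each value are therefore unknown.

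Of the 37 genes, 32 reached 1 TPM in at least 3 libraries and were tested with limma on log2(TPM + 1), in a fit of all 12456 genes at that level. At an adjusted p of 0.05, 8 of the 32 were higher in shKmt2f libraries and 1 was lower, beside 10.4% of all tested genes higher and 3.69% lower. Of all calls 73.8% were higher, against 56.6% after median-ratio scaling, 61.7% with TPM weighted by length, 46.8% after GC correction and 46.7% after GC and length correction. The 8 were Sv2b, Snap25, Slc17a7, Napb, Cplx2, Erc2, Syp and Nsf, and the gene that fell was Sncb. The fold change, on the log2(TPM + 1) scale and as shKmt2f minus control throughout, was positive for 28 of the 32 tested members and for 59.3% of all tested genes. Its median was 0.34 over the 32 members and 0.09 over all tested genes, or 0.23 and -0.02 after median-ratio scaling, which moved the median of all genes by -0.11. With that scaling the fold changes of Erc1, Napa, Rab3a, Rab3b, Stx1a, Sv2a, Syt4 and Vamp2 turned negative, between -0.12 and -0.02. The 4 shKmt2f libraries all lay above the 3 control libraries for 14 of the 32, beside 19.2% of all tested genes, and all below them for 2, beside 9.67%. The calls rest on few libraries. Leaving out control replicates 1, 2 or 3 gave 0, 10 or 1 higher members, and leaving out shKmt2f replicates 1, 2, 3 or 4 gave 0, 1, 2 or 4. Over all tested genes the higher calls numbered 144, 2432 or 220 without control replicates 1, 2 or 3. Without shKmt2f replicates 1, 2, 3 or 4 they numbered 147, 166, 350 or 303. Between 12345 and 12406 genes were tested in these fits. The lower call was kept when control replicate 2 was left out and lost when any of the other 6 was.

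**Figure D1:**
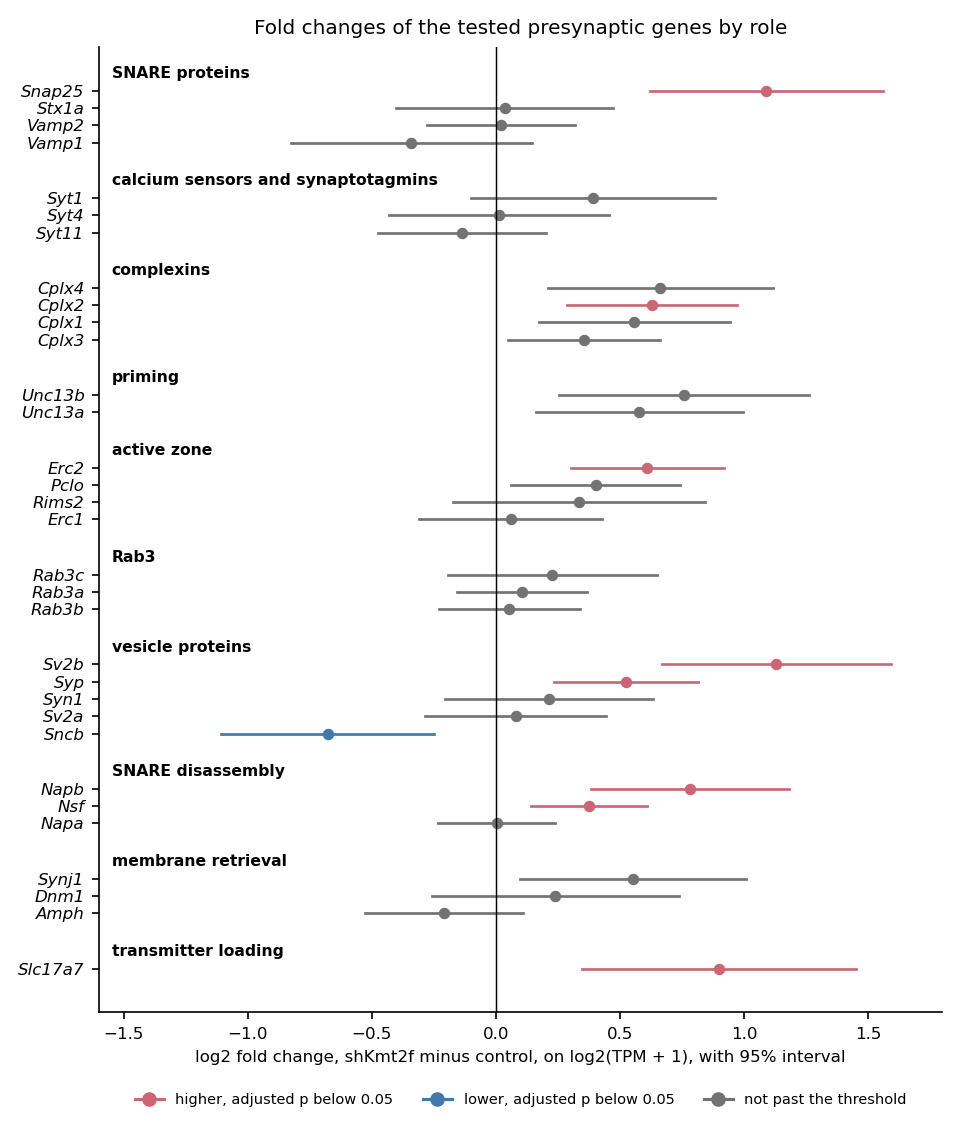
Fold changes of the 32 tested presynaptic genes, grouped by role, on the log2(TPM + 1) scale with 95% intervals from limma (control n = 3, shKmt2f n = 4). The 8 genes in red were higher and Sncb, in blue, was lower at an adjusted p of 0.05. Of the 23 grey genes, 20 also have positive values in this fit, which used no scaling.

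The SNARE proteins form the fusion complex itself. Snap25, a plasma membrane SNARE (chromosome 2, 136713453 to 136782428, plus strand, GRCm38), rose. Its summed level was 40.1, 69.0 and 36.6 TPM in controls against 111, 104, 89.0 and 99.4 TPM in shKmt2f replicates 1, 2, 3 and 4. Control replicate 2 was the highest of the controls by a wide margin, but every shKmt2f library was above it. The means were 48.6 ± 17.8 TPM (SD, n = 3) and 100.8 ± 9.09 TPM (SD, n = 4), with a log2 difference of 1.09 (SE 0.21, limma adjusted p = 0.0195). Both main coding transcripts of Snap25 moved together: that of 2116 bases rose from 32.1 ± 11.0 to 62.6 ± 5.46 TPM (limma over transcripts, adjusted p = 0.049) and that of 1014 bases from 15.2 ± 6.06 to 34.7 ± 3.69 TPM (adjusted p = 0.0462). The shorter took between 28.3% and 33.2% of the Snap25 TPM in controls and between 31.9% and 35.7% in shKmt2f libraries, ranges that overlap.

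The other 3 SNARE genes did not pass. Vamp2, the main vesicle SNARE of the brain, was the most abundant SNARE gene over all libraries at 78.2, 66.2 and 92.8 TPM in controls against 80.7, 86.3, 77.4 and 73.8 TPM in the shKmt2f libraries in order. All shKmt2f values of Vamp2 lay within the control range, and the log2 fold change was 0.02, with a 95% interval from -0.28 to 0.32 (limma adjusted p = 0.937). Stx1a, a syntaxin of the plasma membrane, stood at 5.84 ± 1.40 TPM in controls against 5.96 ± 0.993 TPM with shKmt2f. Vamp1, the second vesicle SNARE, had the lowest fold change of the group, at -0.34 with an interval from -0.83 to 0.14. Snap25 thus stood at 2.07 times its control mean and Vamp2 at 1.01 times.

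The machinery that takes spent SNARE complexes apart consists of the ATPase NSF and its SNAP adaptors. Napb, the neuronal adaptor beta-SNAP (chromosome 2, 148693985 to 148732467, minus strand), rose from 5.50, 6.60 and 6.06 TPM in the controls to 12.8, 13.5, 9.79 and 8.96 TPM in shKmt2f replicates 1, 2, 3 and 4, with no overlap between the groups. Napb differed by 0.78 on the log2 scale (SE 0.17, limma adjusted p = 0.0288). The increase lay in its coding transcript of 4412 bases, which had 3.89, 3.42 and 3.83 TPM in controls against 8.46, 8.79, 8.54 and 8.35 TPM with shKmt2f, with no overlap (log2 fold change 1.02, limma over transcripts, adjusted p = 0.0195). A Napb transcript of 4311 bases annotated for nonsense-mediated decay was scattered, at 3.60 and 3.95 TPM in shKmt2f replicates 1 and 2 but 0.607 TPM in replicate 3 and listed at 0 in replicate 4.

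Napa, the widely expressed alpha-SNAP, was the most abundant of all the members at 334, 342 and 413 TPM in controls against 363, 381, 347 and 359 TPM with shKmt2f. Its groups overlapped fully, with a log2 fold change of 0.00 and an interval from -0.23 to 0.24. Most of that level is carried by 3 short transcripts of 463, 495 and 525 bases, annotated as retained introns or for nonsense-mediated decay, and the coding transcript of 2517 bases held 9.64% of it. The log2 ratio of Napb to Napa within a library went from -5.69 ± 0.189 in control to -4.91 ± 0.226 in shKmt2f libraries (exact permutation p = 0.0286; adjusted over the 8 paralog pairs compared, which were chosen after values were seen, p = 0.0762). Nsf rose by less, from 90.9, 108 and 113 TPM to 134, 133, 138 and 133 TPM, with narrow shKmt2f values all above the controls (log2 difference 0.37, SE 0.10, limma adjusted p = 0.0455). A fragment of 278 bases holds 66.3% of the Nsf TPM. The full coding transcript of 3766 bases stood at 9.49, 11.9 and 12.5 TPM in controls against 14.8, 15.1, 12.5 and 12.3 TPM with shKmt2f, which overlap. Weighted by transcript length before summing, Nsf had an adjusted p of 0.16 in limma, and after median-ratio scaling 0.101.

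**Figure D2:**
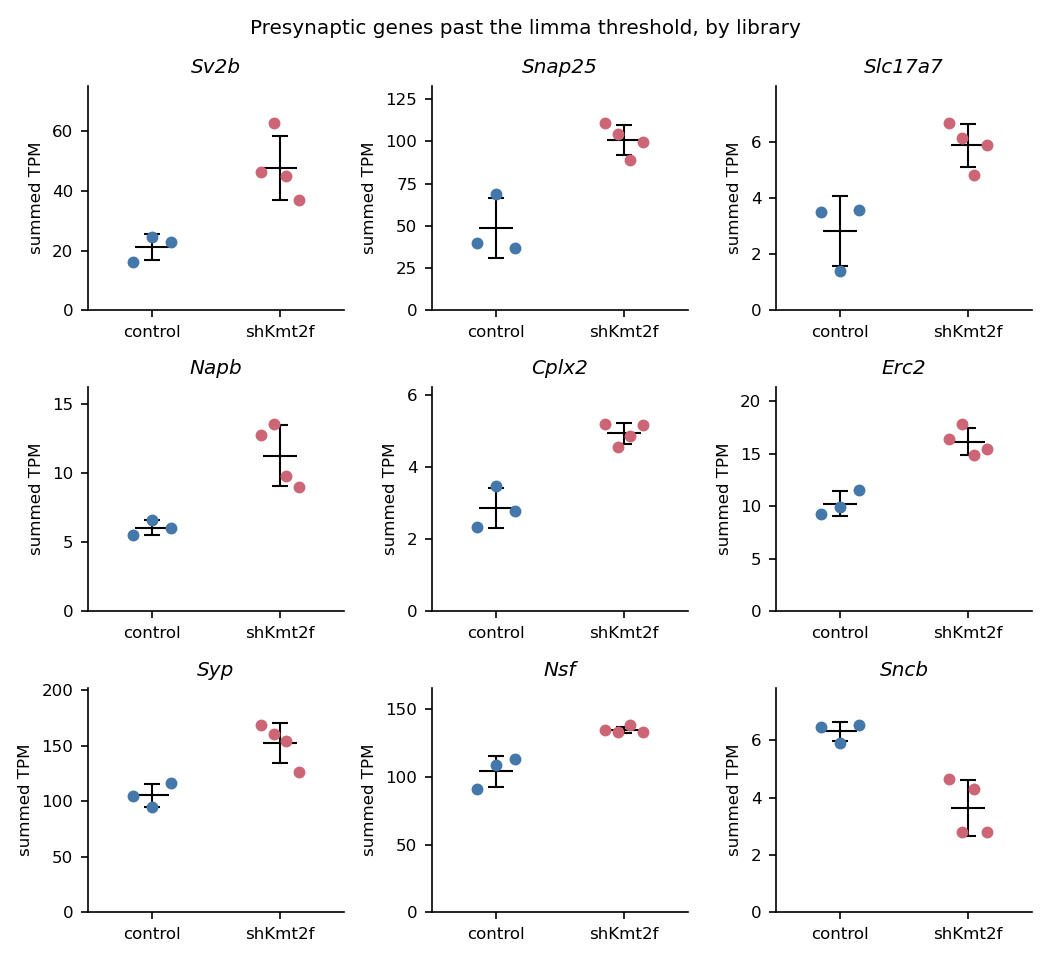
Summed TPM of the 9 presynaptic genes past the limma threshold, 1 point per library (blue control, n = 3; red shKmt2f, n = 4), with the mean and SD in black and a linear axis from 0. In all 9 panels the groups do not overlap, and Sncb is the gene with lower shKmt2f values.

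Proteins of the vesicle itself included the strongest rise and the fall. Sv2b, a glycoprotein of the vesicle membrane whose family is needed for normal calcium-triggered release (chromosome 7, 75114894 to 75309262, minus strand), had 16.2, 24.5 and 22.8 TPM in controls against 46.3, 62.6, 44.9 and 36.8 TPM with shKmt2f. The lowest shKmt2f library, replicate 4, was above every control. The means were 21.1 ± 4.40 and 47.6 ± 10.8 TPM (SD, n = 3 and 4), with a log2 difference of 1.13 (SE 0.20, limma adjusted p = 0.0172). Leaving out control replicate 1 or shKmt2f replicate 1 raised its limma adjusted p to 0.0537 or 0.0521, and it passed with each of the other 5 left out. A short non-coding transcript of 413 bases held 40.9% of the Sv2b TPM and rose most, from 7.16 ± 1.53 to 20.6 ± 4.38 TPM (limma over transcripts, adjusted p = 0.0256), while the coding transcripts of 5307, 3910 and 5524 bases had no overlap between groups either but did not pass. Sv2a, the paralog found at most synapses, stood at 6.69 ± 0.627 and 7.17 ± 1.19 TPM. The log2 ratio of Sv2b to Sv2a went from 1.51 ± 0.330 to 2.56 ± 0.297 (exact permutation p = 0.0286, adjusted over the pairs p = 0.0762). The pair was chosen after values were seen, and the ratio reuses the Sv2b values behind the call.

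Syp encodes synaptophysin, an abundant membrane protein of small synaptic vesicles (chromosome X, 7638471 to 7653256, plus strand). It was at 104, 95.2 and 116 TPM in controls against 168, 161, 154 and 126 TPM with shKmt2f, with control replicate 3 and shKmt2f replicate 4 closest to each other. It differed by 0.52 on the log2 scale (SE 0.13, limma adjusted p = 0.0346), and median-ratio scaling raised the adjusted p to 0.0742. The Y-linked gene Uty had 1.78 and 2.24 TPM in the first and second control and at most 0.0929 TPM in the other 5 libraries. The part of this imbalance in the difference of the X-linked Syp was not tested. Kdm5d, also Y-linked, had 2.32, 3.37 and 1.26 TPM in controls against 1.42, 1.25, 1.17 and 1.31 TPM with shKmt2f, which overlap. An exon of Syp shares 875 bases with Gm14703 on the opposite strand, which has no row, and the labels do not state whether strand was used. Syn1, an X-linked synapsin that tethers vesicles to the cytoskeleton, did not pass, at 3.53 ± 1.06 and 4.18 ± 0.507 TPM.

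Sncb encodes beta-synuclein, a small soluble protein of nerve terminals (chromosome 13, 54758860 to 54766595, minus strand). It fell from 6.48, 5.92 and 6.52 TPM in control to 4.66, 2.80, 4.31 and 2.79 TPM in shKmt2f libraries. The shKmt2f values split into a higher pair, replicates 1 and 3, and a lower pair, replicates 2 and 4, unlike the pairs of the library correlations. Both lay below the controls (log2 difference -0.68, SE 0.19, limma adjusted p = 0.0469). This was the weakest of the 9 calls. A retained-intron transcript of 469 bases carried most of it, and with protein-coding transcripts only the log2 fold change was -0.29 (adjusted p = 0.17).

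**Figure D3:**
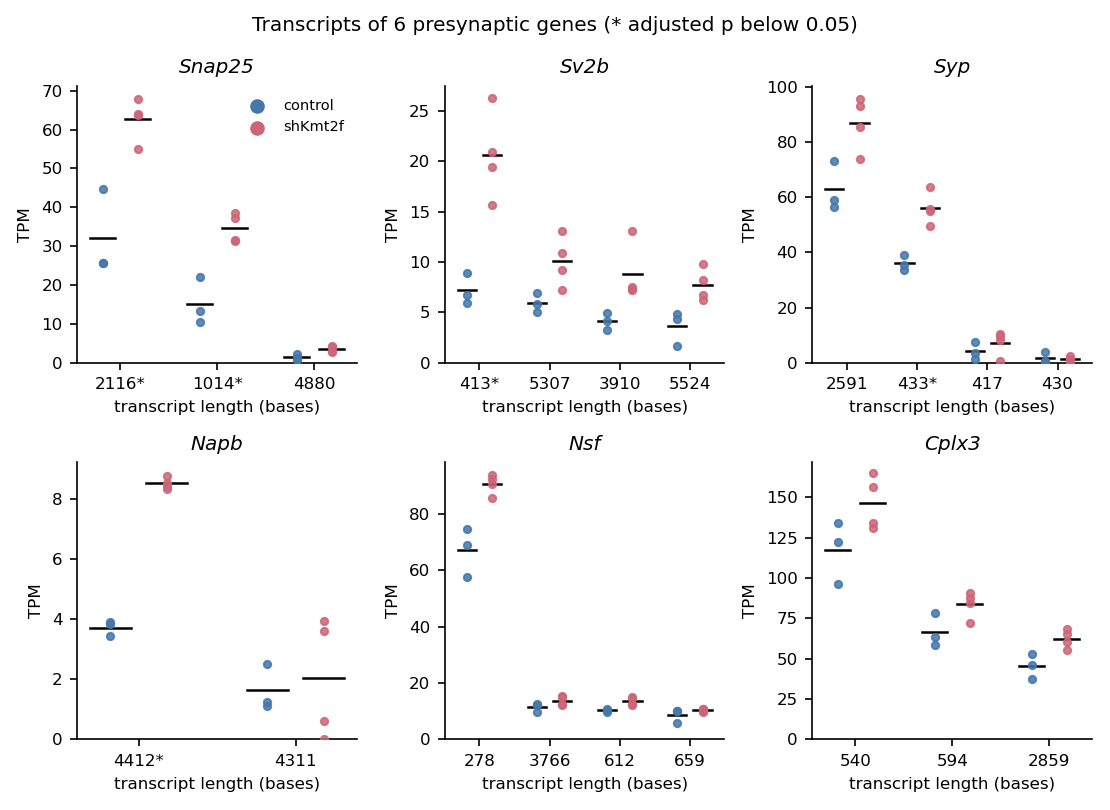
TPM of the most abundant tested transcripts of Snap25, Sv2b, Syp, Napb, Nsf and Cplx3, labelled by length in bases, 1 point per library (blue control, red shKmt2f) with the group mean as a black line; asterisks mark transcripts past an adjusted p of 0.05. The Napb transcript of 4412 bases separates cleanly, while Nsf is dominated by a fragment of 278 bases.

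The promoter windows of 3 genes that rose are shown because 2 of them hold TAATCC, the core recognised by the homeobox factors OTX2 and CRX of photoreceptors, and the third does not. They were picked after values were seen. RefSeq promoter sequences of GRCm38.p6, 250 bases before to 50 bases after an annotated start, matched 31 of the 37 genes with 38 starts. They are printed on the gene's own strand, with matches to TAATCC and to the GC box GGGCGG in capitals on either strand.
Sv2b, chr7:75309213-75309512, minus strand: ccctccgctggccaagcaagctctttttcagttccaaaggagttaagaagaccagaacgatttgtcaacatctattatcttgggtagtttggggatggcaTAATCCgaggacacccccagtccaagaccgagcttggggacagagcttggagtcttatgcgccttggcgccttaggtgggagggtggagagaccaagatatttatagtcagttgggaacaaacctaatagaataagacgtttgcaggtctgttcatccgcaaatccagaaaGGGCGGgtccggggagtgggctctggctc
Syp, chrX:7638330-7638629, plus strand: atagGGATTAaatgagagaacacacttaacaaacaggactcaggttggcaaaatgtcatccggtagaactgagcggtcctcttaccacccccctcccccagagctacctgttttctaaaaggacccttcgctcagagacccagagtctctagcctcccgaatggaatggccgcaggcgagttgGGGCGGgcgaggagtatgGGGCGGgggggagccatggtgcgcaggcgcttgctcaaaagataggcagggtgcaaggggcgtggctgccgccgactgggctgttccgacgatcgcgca
Slc17a7, chr7:45163671-45163970, plus strand: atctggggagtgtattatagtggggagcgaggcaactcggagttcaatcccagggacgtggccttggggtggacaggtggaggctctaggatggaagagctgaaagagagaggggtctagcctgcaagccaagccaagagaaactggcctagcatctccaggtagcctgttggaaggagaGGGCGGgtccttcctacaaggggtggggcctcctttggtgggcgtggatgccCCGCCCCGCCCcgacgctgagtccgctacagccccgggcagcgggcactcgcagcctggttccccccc
In the windows printed, Sv2b and Syp each hold 1 TAATCC match and Slc17a7 holds 0. GGGCGG matches there number 1, 2 and 3 in Sv2b, Syp and Slc17a7, and neither motif contains the other. Sv2b has further annotated starts, not printed. The window at chr7:75302560-75302859 also holds 1 TAATCC match, and those at chr7:75308337-75308636 and chr7:75219970-75220269 hold 0. A TAATCC match was present in 3 of the 38 member windows, all of Sv2b or Syp, and in 7.06% of 32851 windows of the same length. GGGCGG was present in 23 of the 38 and in 35.7% of all windows. The other motifs searched on both strands were TTCAGCACC, the left part of the site of the neuronal repressor REST, found in the windows of Syn1 and Unc13a and in 0.371% of all windows, TGACGTCA, found for Syn1 and Napa and in 1.79% of all, and CAGATG, found for Pclo and Syn2 and in 17.2% of all. The median number of CpG dinucleotides was 18 per member window and 7 per window overall. A match describes the letters only.

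Of the transmitter transporters, Slc17a7 alone reached the level for the test. Slc17a7, which encodes VGLUT1, the glutamate transporter of photoreceptor and bipolar cell terminals (chromosome 7, 45163949 to 45176142, plus strand), stood at 3.49, 1.41 and 3.58 TPM in controls against 6.65, 6.15, 4.83 and 5.88 TPM with shKmt2f. Control replicate 2 was low, and the groups did not overlap. The log2 fold change of 0.90 (SE 0.24) had a limma adjusted p of 0.0438 and missed the threshold with a pseudocount of 0.1 (adjusted p = 0.053) or after scaling (0.0636). Slc32a1, the vesicular transporter for GABA and glycine in amacrine and horizontal cells, was below the level for the test, with between 0.561 and 0.675 TPM in controls and between 0.402 and 0.830 TPM with shKmt2f (exact permutation p = 0.657).

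Complexins clamp the SNARE complex and promote its calcium-triggered fusion. Cplx3, of ribbon and some amacrine synapses, was by far the most abundant at 232, 192 and 265 TPM in controls against 315, 318, 279 and 258 TPM with shKmt2f. Its groups overlapped through shKmt2f replicate 4, and the log2 fold change of 0.36, with an interval from 0.05 to 0.66, did not pass (limma adjusted p = 0.107). Short coding transcripts of 540 and 594 bases held 50.5% and 28.8% of the Cplx3 TPM. The transcript of 2859 bases held 20.7%, at 45.4 ± 7.79 and 62.2 ± 5.65 TPM. Its groups did not overlap, and it did not pass (limma over transcripts, adjusted p = 0.102). Cplx2 was the 1 complexin that passed (chromosome 13), at 2.34, 3.46 and 2.78 TPM in controls against 5.18, 4.56, 4.85 and 5.16 TPM with shKmt2f, with no overlap (log2 difference 0.63, SE 0.15, limma adjusted p = 0.0336).

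The remaining complexins had similar values without passing. Cplx1 was at 3.06 ± 0.731 and 4.92 ± 0.550 TPM (adjusted p = 0.0591 in limma) and Cplx4, the other ribbon form, at 1.46 ± 0.621 and 2.82 ± 0.327 TPM (adjusted p = 0.0578). For both, every shKmt2f library was above every control. All 4 complexins thus had positive fold changes, between 0.36 and 0.66. The log2 ratio of Cplx4 to Cplx3 was -6.57 ± 0.459 in control and -6.26 ± 0.212 in shKmt2f libraries, a difference of 0.31 within the spread (exact permutation p = 0.314).

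At the active zone, where vesicles dock, Erc2, the scaffold protein CAST (chromosome 14, 27622428 to 28478537, plus strand), rose from 9.26, 9.98 and 11.6 TPM to 16.4, 17.8, 14.9 and 15.5 TPM. Both groups were narrow and separate (log2 difference 0.61, SE 0.14, limma adjusted p = 0.0287). Of its TPM, 57.6% came from a transcript of 1099 bases annotated as lacking a stop codon, and with protein-coding transcripts only the adjusted p was 0.0669. Erc1, the more widely expressed paralog ELKS, stood at 3.97 ± 0.935 and 4.12 ± 0.208 TPM, and the log2 ratio of Erc2 to Erc1 went from 1.19 ± 0.273 to 1.74 ± 0.135 (exact permutation p = 0.0286, adjusted over the pairs p = 0.0762). This pair too was chosen after values were seen, and the ratio reuses the Erc2 values behind the call.

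Piccolo, encoded by Pclo, organises the active zone and in a short form the ribbon. It was low, at 1.24, 1.14 and 1.12 TPM in controls against 2.35, 1.94, 1.46 and 1.76 TPM with shKmt2f, without overlap and without passing (limma adjusted p = 0.103). Rims2, a scaffold that recruits calcium channels, was at 4.63 ± 1.78 and 5.94 ± 0.976 TPM, and its paralog Rims1 and Bsn, which encodes bassoon, were below the level for the test, with means of 0.501 and 0.629 TPM for Rims1 and 0.644 and 0.604 TPM for Bsn (exact permutation p = 0.114 and 0.571).

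Priming, the step that makes docked vesicles fusion-ready, depends on the Munc13 proteins. Unc13b stood at 4.44, 5.41 and 7.03 TPM in controls against 11.1, 13.6, 7.46 and 9.02 TPM with shKmt2f, with shKmt2f replicate 3 just above control replicate 3. Its log2 fold change of 0.76 (interval from 0.26 to 1.26) narrowly missed the threshold (limma adjusted p = 0.0533) and passed after median-ratio scaling (0.0451). One short coding transcript of Unc13b, of 768 bases, was listed at 0 in all 3 control libraries and at 1.43, 1.51, 1.37 and 1.60 TPM in shKmt2f libraries. A listed 0 can be a failed estimate, so no fold is given. The main coding transcript of 6354 bases had no overlap between groups and did not pass (limma over transcripts, adjusted p = 0.205), at 2.50, 3.51 and 4.35 TPM against 4.98, 6.09, 4.79 and 4.40 TPM. Unc13a, the principal brain form, was at 7.32 ± 1.89 and 11.3 ± 1.13 TPM with separate groups (limma adjusted p = 0.0663), and 495 bases of an exon overlap Colgalt1 on the opposite strand, so its level is uncertain.

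Among the synaptotagmins and Rab3 proteins, 0 of 6 tested members passed in limma, and the unadjusted 95% interval of each of the 6 fold changes included 0. Syt1, the fast calcium sensor, was at 8.60, 17.2 and 9.87 TPM in controls against 16.5, 14.8, 15.1 and 14.7 TPM with shKmt2f. Control replicate 2 was the highest library of all for Syt1, and without it the gene was called higher (limma adjusted p = 0.0101). Syt1 was not called with any other library left out or in any other setting tried. Its fold change of 0.39 went to -0.02 after GC correction and -0.15 after GC and length correction. Syt11, a synaptotagmin that does not bind calcium, whose transcripts match the pseudogene Gm10042 at 91.2% identity so that its reads may be shared, was the most abundant of its family at 91.4, 112 and 128 TPM in controls against 102, 118, 94.1 and 86.2 TPM with shKmt2f, which overlap. Syt4 stood at 2.16 ± 0.954 and 2.09 ± 0.0498 TPM and Syt13 had means of 0.0989 and 0.105 TPM, below the test. Rab3a, the main Rab of synaptic vesicles, was at 36.1, 34.3 and 42.2 TPM in controls against 38.1, 42.6, 38.9 and 41.8 TPM with shKmt2f. Those values lie almost wholly within the control range, and the interval of the fold change runs from -0.16 to 0.37. Rab3b and Rab3c had fold changes of 0.05 and 0.23.

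For membrane retrieval after fusion 0 of 3 passed in limma, and the unadjusted 95% interval excluded 0 for 1 of them, Synj1. Amph, encoding amphiphysin, was the most abundant at 6.87, 6.56 and 7.93 TPM in controls against 6.27, 6.53, 5.34 and 5.93 TPM with shKmt2f, all of them lower, with control replicate 2 and shKmt2f replicate 2 nearly equal (limma adjusted p = 0.343). Synj1, a phosphoinositide phosphatase that uncoats vesicles, had 4.02 ± 1.10 and 6.29 ± 1.10 TPM (adjusted p = 0.0956 in limma), and Dnm1, the neuronal dynamin, 2.61 ± 0.241 and 3.38 ± 1.16 TPM. Syn2, the other synapsin listed, had at most 0.0833 TPM in any library.

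**Figure D4:**
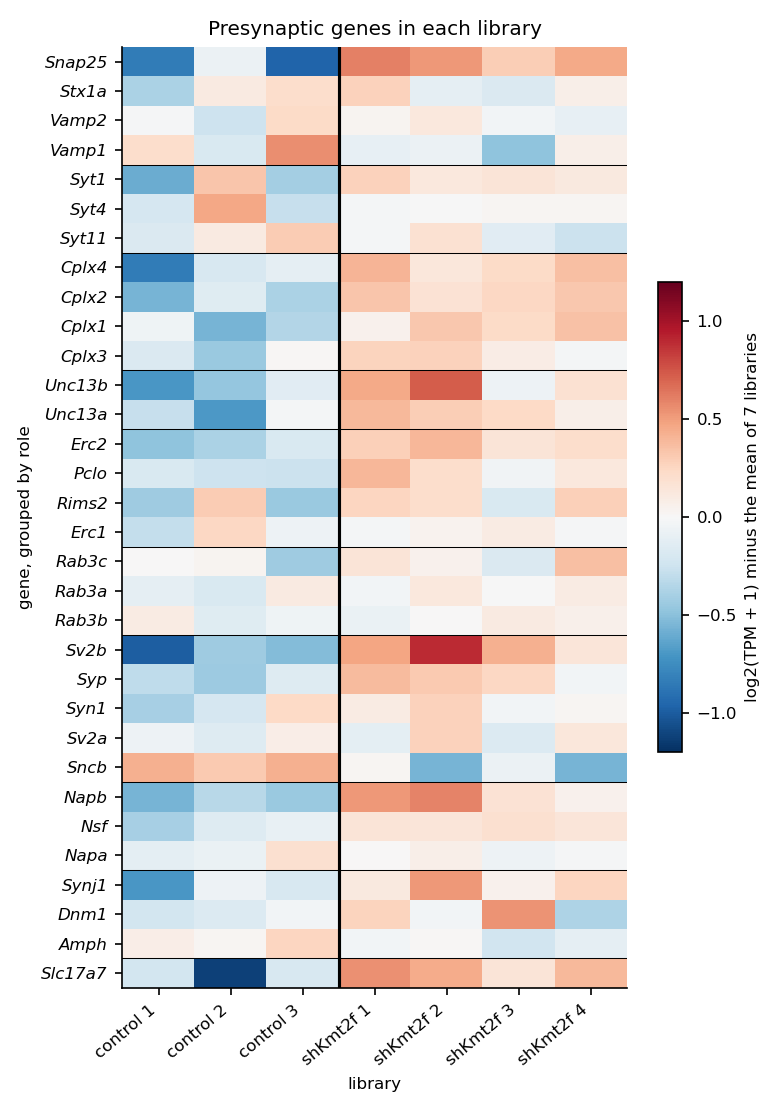
log2(TPM + 1) of the 32 tested presynaptic genes in each library, minus the mean of the 7 libraries, with genes in rows grouped by role and a black line between control and shKmt2f. Control replicate 2 is above the mean for Syt1, Syt4 and Rims2, unlike control replicates 1 and 3, whereas Vamp2, Rab3a, Rab3b and Napa stay near 0 in every library.

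Further genes of the presynaptic pathway were taken from a list of 94, of which 93 had rows and 72 were tested. In this list 11 were higher and 1 was lower, beside 10.4% and 3.69% of all tested genes, with a median log2 fold change of 0.17 beside 0.09 over all. Among them Scamp1, a carrier membrane protein, rose from 7.78 ± 0.640 to 15.7 ± 1.35 TPM (limma adjusted p = 0.0115). Chgb, the granin chromogranin B of dense-core vesicles, rose from 35.9 ± 12.1 to 81.6 ± 6.17 TPM (limma adjusted p = 0.0129) and Stxbp5, tomosyn, which sequesters SNARE proteins and inhibits priming, from 8.02 ± 2.11 to 24.7 ± 7.38 TPM (limma adjusted p = 0.0143). Each of these was still called with any single library left out and in all 8 other settings tried. Ppfia2, a liprin of the active zone, rose from 3.41 ± 1.44 to 8.80 ± 0.865 TPM, and the clathrin heavy chain gene Cltc from 50.5 ± 19.4 to 111.8 ± 14.7 TPM. Syt17, an unusual synaptotagmin, had 6.55 ± 1.85 TPM in controls and fell to 2.63 ± 1.05 TPM (limma adjusted p = 0.0331).

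The authors' deposited table, which compares single transcripts, gives q below 0.05 to 11 of the 147 member transcripts, all with a positive effect, beside 3.43% of all transcripts with a positive and 2.09% with a negative effect at that q. They belong to 7 genes, namely Sv2b, Snap25, Napb, Cplx2, Cplx4, Slc17a7 and Unc13b. In the authors' deposited table the effect on the natural log scale is 0.75 for the Napb transcript of 4412 bases (q = 0.000614), 0.62 and 0.79 for the Snap25 transcripts of 2116 and 1014 bases (q = 0.00224 and 0.00329) and 0.47 for Cplx2 (q = 0.000952). By limma over 37024 transcripts, 6 of the 88 tested member transcripts were higher and 0 lower, beside 1.44% and 0.794% of all.

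Markers of some retinal cell types also differed between the groups. In bulk RNA fewer cells of a type and less RNA per cell cannot be told apart. The summed TPM of 12 photoreceptor markers, of which 10 were tested, 3 higher and 0 lower, was between 459 and 577 in controls and between 711 and 949 with shKmt2f. The 3 that rose were Otx2, Crx and Prdm1, early photoreceptor factors, from 370.1 to 557.9, from 62.3 to 102.8 and from 37.3 to 91.2 TPM in the means. The other 7 tested did not pass. Of these, Rcvrn and Opn1sw had fold changes of 0.69 (unadjusted 95% interval from 0.03 to 1.35) and 0.32. Those of Nrl, Nr2e3, Rxrg, Thrb and Gnat1 were -0.04, -0.18, -0.04, -0.04 and -0.01. Ganglion cell markers, with 5 of the 10 tested and all 5 higher, summed to between 22.2 and 32.3 TPM in controls and between 47.6 and 54.8 TPM with shKmt2f. The 5 were Gap43, Elavl4, Isl1, Nefm and Nefl. Of those below the level for the test, Pou4f1 had means of 0.191 and 0.424 TPM, without overlap. Pou4f2 (0.0446 and 0.0664), Rbpms (0.732 and 0.858), Thy1 (0.905 and 1.01) and Sncg (0.340 and 0.231 TPM) overlapped between the groups. The 10 progenitor markers summed to between 952 and 1183 TPM in controls and between 761 and 893 TPM with shKmt2f, with 2 lower. Markers of amacrine cells ranged from 258 to 268 and from 266 to 300 TPM, with 1 of 8 higher. Horizontal cell markers, 2 of 4 higher, ranged from 11.9 to 19.4 and from 21.2 to 29.0 TPM, those of bipolar cells, 1 of 3 higher (Isl1, which is also among the ganglion cell markers that rose), from 8.49 to 10.1 and from 7.80 to 16.1 TPM, those of Müller glia, 1 of 4 lower, from 751 to 960 and from 793 to 937 TPM, and those of endothelium, 0 of 2 called, from 62.3 to 104.9 and from 72.6 to 108.7 TPM. For microglia, pigment epithelium and astrocytes the sums reached at most 1.54, 0.857 and 1.05 TPM. Library-wide trends moved too: the slope on transcript length ran from -0.131 to -0.0213 per doubling for controls and from 0.00196 to 0.107 for shKmt2f, and that on GC content per 10% from -0.0438 to 0.407 and from -0.181 to -0.118. The part of cell composition in the presynaptic differences was not tested. After correction of each library for GC content and length, Sv2b, Snap25, Syp, Erc2, Nsf and Slc17a7 kept their calls, Cplx3, Unc13a and Unc13b were added, and 3 calls were lost. Of all 12456 genes tested in that fit, 616 were called higher. Napb went from 0.78 to 0.26 (limma adjusted p = 0.255), whereas Cplx2 was still at 0.54 (0.068) and Sncb at -0.48 (0.107), and Syt4 became a lower call (-0.70, adjusted p = 0.0186).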

How the data were processed

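The members and gene lists were chosen with earlier results of these data known. SMART-Seq v4 cDNA from 1 ng of RNA was sequenced, per the labels' protocols. Per the submitters' processing notes, Salmon 0.11.3, sleuth 0.30.0 and GRCm38.p6 were used. The authors deposited 1 table per library with TPM per transcript. The authors' p-value and q-value and their effect, in natural log units by its size against the TPM ratios, were identical in the 7 deposited tables. Of 55475 rows, 71 without TPM were left out. TPM totals were between 991445 and 992309.

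TPM was summed per gene. Genes reaching 1 TPM in 3 or more libraries entered limma 3.58.1 (run in R 4.3.3), fitted to log2(TPM + 1) by group alone with the trend and robust options; p-values were adjusted by Benjamini-Hochberg over all genes. The scripts were tested on simulated data. Single values used a two-sided exact permutation test over 35 splits. All members were accounted for; those past the threshold and the most abundant of each role are given by library, and from the wider list those past the threshold, at most 6 per direction; some genes are not reported here. Lengths and GC content came from GENCODE transcripts. Annotated pseudogenes were matched to members with blastn 2.17.0 at 90% identity over 50% of their length. The paralog pairs, motifs and promoters shown were chosen after values were seen.

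Other settings tried were scaling by median ratios, no filter, a pseudocount of 0.1, the replicate block, loess correction on GC content (span 0.3) without and with length, protein-coding transcripts only, TPM weighted by length, and leaving out each library.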

Additional observations from a re-analysis of the deposited data

Results flagged for a closer look

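Among 44 genes, namely the members averaging 1 TPM or more and the called genes of the wider list, 1 had a value far from the others within the 4 shKmt2f libraries. Syt17 stood at 4.19 TPM in shKmt2f replicate 2 and between 1.86 and 2.25 TPM in the other 3, a gap of 0.83 of the whole range. Chance alone marks about 1 group in 20 in this way.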

How the results depend on the processing

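Among the presynaptic members, the higher calls numbered 8, and between 0 and 10 without any 1 library; they fell to 4 with the replicate block and 5 with TPM weighted by length. The 1 lower call ranged from 0 to 1 without a library and was 0 with no filter, with a pseudocount of 0.1, with the replicate block and with protein-coding transcripts only. In the wider list the 11 higher calls ranged from 3 to 12 without a library. They were 6 with the replicate block and 7 with either GC correction or GC and length correction. The 1 lower call in that list ranged from 0 to 1 without a library, and was 0 with the block. Lower calls there numbered 2 with median-ratio scaling or GC correction, and 3 with GC and length correction or length weighting. The 6 higher member transcripts ranged from 0 to 10 without a library, and numbered 3 with no filter, 2 with a pseudocount of 0.1 and 0 with the block. Over all genes the 1755 calls ranged from 283 to 3004 without a library. The higher calls among them were 1295 of 12456 genes tested, and 1044 of 12456 with the replicate block. They were 1551 of 13633 with length weighting, and of 12456, 607 with GC correction and 616 with GC and length correction. The share of higher calls was 73.8%, 56.6% after median-ratio scaling, 61.7% with length weighting, 46.8% after GC correction and 46.7% after GC and length correction. Syt4 changed sign, to -0.58 with GC correction and -0.70 with GC and length correction, both past the threshold. It was the lower member there in place of Sncb. With GC and length correction the fold changes of Erc1, Rab3c, Rims2, Sv2a and Syt1 turned negative too, between -0.30 and -0.02, without passing. In that fit the median fold change was 0.19 over the tested members and -0.004 over all genes. The cause of these sign changes was not tested. The Setd1a difference was -0.94 on log2(TPM + 0.1) for the longest transcript and -0.37 for the sum. Of the 5 members below the level filter, 0 had an exact permutation p under 0.05. Same-numbered libraries had correlated deviations of 0.0793, 0.0651 and 0.0597, so the numbers were not taken to pair the samples; in the block fit shKmt2f replicate 4, the sole library with that number, adds nothing. Depth is unknown.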

Other observations

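Cask, which encodes a scaffold protein of synapses (chromosome X, 13517080 to 13851367), differed widely within both groups. Its level was 4.96, 12.7 and 27.9 TPM in controls against 5.93, 8.51, 47.1 and 55.3 TPM with shKmt2f, in replicate order, and the groups overlap (limma adjusted p = 0.685). It was picked after its values were seen.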
